A study of Mus musculus with 91 samples.

Results

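Neurofilaments and the proteins of the axonal cytoskeleton were followed here through 10 genes, *Nefl*, *Nefm*, *Nefh*, *Ina*, *Map1b*, *Map2*, *Mapt*, *Tubb3*, *Stmn2* and *Gap43*, which were chosen by name from the 34745 rows of the deposited tables. The tables cover 91 single layer 5 (L5) pyramidal neurons (Pyrs) of the primary visual cortex (V1) of adult wild-type mice (genotype label WT, the C57 strain in the study's methods), 47 labelled Pyr←LP and 44 labelled Pyr←ORBvl, where the arrow points from the area whose top-down input the type receives: the lateral posterior nucleus of the thalamus (LP) or the ventrolateral orbital cortex (ORBvl). The neurons carried no transgene and received no treatment that the labels name. In this Patch-seq experiment each neuron was recorded with a patch pipette and assigned to a type by a classifier of its hyperpolarization-activated current, so the labels do not rest on RNA, and its soma with the nucleus was then aspirated and its mRNA turned into a Smart-seq2-type library. The comparison asks whether the types, which the study separates by their currents and firing, also differ in these structural genes.

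The axonal cytoskeleton is built from microtubules, neurofilaments and actin. Neurofilaments are rope-like polymers of a light, a medium and a heavy subunit together with alpha-internexin, they fill large myelinated axons and set their calibre, and among cortical neurons they are known to be rich in large L5 projection neurons. Microtubule-associated proteins bundle and space the microtubules, MAP2 in dendrites and soma and tau in the axon, while GAP-43 and stathmin-2 are known from growing axons.

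In the 91 neurons all 10 genes had counts, but seldom together. Each neuron held a count of between 1 and 10 of the genes (median 7), and 17 neurons held all 10. None of the 10 genes passed the test between Pyr←LP and Pyr←ORBvl neurons. *Mapt*, which encodes tau, had the largest difference, 1.25 ± 0.86 (standard error, SE) lower on the log2 scale in Pyr←ORBvl neurons, with an adjusted p of 0.999 in edgeR. Over the 72 neurons of greater depth *Nefl* and *Nefm* varied together more than any other pair of the 10, although *Nefm* and *Ina* did slightly more within Pyr←LP neurons.

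Before the values, the sequences and annotation behind 3 of the counts are given, since they bear on what a count of *Nefl*, *Nefm* or *Nefh* means. Positions are those of GENCODE vM21 on GRCm38, the build the study aligned to. *Nefl* lies on the plus strand at chr14:68083863-68089095 and *Nefm* on the minus strand at chr14:68082590-68124846, so that the genes overlap. One of the 2 annotated *Nefm* transcripts ends in an exon at chr14:68082590-68084970, and that exon covers 1108 bases of the first exon of *Nefl* on the opposite strand, 32.8% of the exon bases of *Nefl*. The kit does not mark the strand of an RNA, and the strand setting of the count is not given in the sources used here. How reads from these bases were counted is therefore not known. The end of the covered stretch lies in coding sequence at chr14:68084911-68085000 (plus strand), shown here with the bases under the *Nefm* exon in capitals, followed by the start of the repeats of *Nefh* at chr11:4940899-4941060 (minus strand, coding part of the last exon), with each copy of AAGTCNCC in capitals.
Nefl exon 1: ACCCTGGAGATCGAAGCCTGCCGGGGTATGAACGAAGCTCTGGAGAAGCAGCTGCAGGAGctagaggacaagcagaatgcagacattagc
Nefh repeats: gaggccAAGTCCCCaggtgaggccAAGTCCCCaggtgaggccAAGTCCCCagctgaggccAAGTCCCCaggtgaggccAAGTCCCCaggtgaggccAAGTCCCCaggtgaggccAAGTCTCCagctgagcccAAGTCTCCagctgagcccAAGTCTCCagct

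The letters AAGTCNCC hold the codons of lysine and serine and the start of a proline codon, the triplet whose serine is heavily phosphorylated in the tail of the heavy neurofilament subunit. The *Nefh* transcript held 34 copies on its own strand, 23 of them starting 18 bases after the copy before, and 3 of 21877 genes with a protein-coding transcript held 10 or more. Of the 50-base windows of the *Nefh* transcript 3.8% occurred more than once inside it, and none occurred in a transcript of another gene. The study aligned 50-base reads and counted only uniquely aligned ones, so a read that lies wholly in such a window can be missing from the *Nefh* count. For *Nefl* 31.8% of the windows also stood in a *Nefm* transcript. *Ina* (chr19:47014698-47025327, plus strand) shared 456 exon bases with *Nt5c2* on the opposite strand, and 12.8% of its windows. The windows of *Map1b*, *Mapt*, *Tubb3* and *Gap43* occurred in no other gene's transcripts, and those of *Map2* and *Stmn2* did so for 0.166% and 0.893%.

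Total counts per neuron were between 2410 and 1948982, and 72 neurons (38 Pyr←LP and 34 Pyr←ORBvl) had at least 100000. The neuronal genes *Snap25* and *Slc17a7* (the vesicular glutamate transporter of cortical Pyrs) had counts in 91 and 71 neurons. Markers of other cells were present too. Summed counts per 1000000 counts (CPM) of 6 microglial markers had a median of 778 in Pyr←LP and 975 in Pyr←ORBvl neurons (range 0 to 15680 and 0.923 to 9992), those of 6 oligodendrocyte markers 1304 and 2244 (0 to 13360 and 2.81 to 23600), and those of 6 astrocyte markers 712 and 676 (0 to 4263 and 0 to 5478). The defining oligodendrocyte markers *Mog* and *Mag* had counts in 1 and 3 neurons, the astrocyte marker *Aqp4* in 4, and the 4 endothelial markers were all at 0 in 85 neurons. Of the 6 GABAergic markers (range 0 to 1239 and 0 to 2518 CPM), all were at 0 in 47 neurons. The part of these transcripts in the values below was not tested. The Pyr←ORBvl neurons 5 and 11 had nearly the same counts. Their chi-square per degree of freedom over 3317 genes was 3.45, against 22.97 for the next closest of the 1264 pairs of the same type with at least 100000 counts and a median of 161.4, so they differed by more than sampling noise but far less than any other pair. The first number of their titles differs, so they entered the comparison of the types in separate sums. Both were kept, and the values without them are given with that comparison.

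FPKM, here the counts of a gene divided by its length and by the total counts of the neuron, puts the genes on a scale per length. Over all 91 neurons the median was highest for *Gap43*, 124.9 FPKM (quartiles 2.29 and 327), followed by *Map1b* at 70.0 (36.02 and 132), *Stmn2* at 39.7 (3.11 and 87.0), *Nefl* at 28.8 (0 and 134.5), *Tubb3* at 28.5 (0 and 153), *Ina* at 26.4 (0 and 106), *Nefm* at 21.9 (0.0709 and 59.4), *Mapt* at 5.45 (0 and 25.8), *Map2* at 3.802 (1.10 and 9.12) and *Nefh* at 0 (0 and 4.36). The quartile ranges of every pair of neighbours in this order overlapped, so none of these steps was larger than the spread between neurons. The order also depends on the length by which the counts were divided. Recovered from the counts, that length was 32401 bases for *Map2*, 5.18 times its longest protein-coding transcript in GENCODE vM21, 3.06 times for *Stmn2*, 2.05 times for *Mapt*, 1.57 times for *Nefm*, 1.53 times for *Gap43* and 1.00 times for *Nefl*, *Nefh*, *Ina*, *Map1b* and *Tubb3*. The length of *Nefm*, 5782 bases, equalled the merged exons of both its transcripts. By the longest coding transcript, an alternative added after the data were seen, the medians became 19.7 for *Map2*, 121.4 for *Stmn2*, 11.2 for *Mapt*, 34.3 for *Nefm* and 191.8 for *Gap43*, on the FPKM scale.

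**Figure D1:**
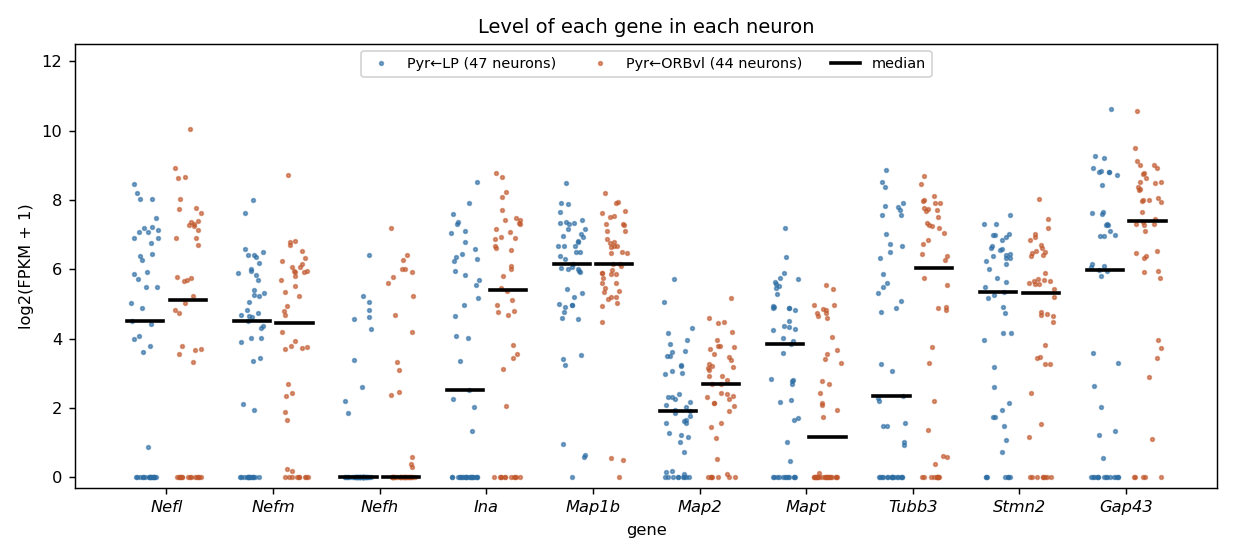
Level of each of the 10 genes in each neuron as log2(FPKM + 1), with 47 Pyr←LP neurons in blue, 44 Pyr←ORBvl neurons in orange and black lines at the medians. Every gene except Map1b has a band of neurons at 0 in both types, and most points of the types overlap for each gene, with the highest points from 1 type only in genes such as Nefl (Pyr←ORBvl) and Mapt (Pyr←LP).

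The light subunit gene *Nefl* had counts in 30 of 47 Pyr←LP neurons (63.8%, Wilson 95% interval 49.5 to 76.0%) and 30 of 44 Pyr←ORBvl neurons (68.2%, 53.4 to 80.0%). Its FPKM ran from 0 to 349 with a median of 21.6 in Pyr←LP neurons and from 0 to 1050 with a median of 33.98 in Pyr←ORBvl neurons. The 4 highest Pyr←ORBvl neurons, at 1050, 482.8, 404.9 and 398.1 FPKM, lay above every Pyr←LP neuron, and the last 2 of these are the near-identical neurons 11 and 5. *Nefm*, for the medium subunit, had counts in 33 of 47 (70.2%, 56.0 to 81.4%) and 35 of 44 neurons (79.5%, 65.5 to 88.9%). Its medians were 21.9 FPKM (0 to 255) in Pyr←LP and 20.9 FPKM (0 to 420) in Pyr←ORBvl neurons, so the types had nearly the same middle value.

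The heavy subunit gene *Nefh* was the sparsest of the 10. It had counts in 11 of 47 Pyr←LP neurons (23.4%, 13.6 to 37.2%) and 18 of 44 Pyr←ORBvl neurons (40.9%, 27.7 to 55.6%), so the median was 0 FPKM in both, with highest values of 85.1 and 145 FPKM. A single Pyr←LP neuron held 44.2% of all *Nefh* counts of its type, and a single Pyr←ORBvl neuron 20.8%. At a threshold of 5 counts the shares were 21.3% and 27.3%, which leaves less of a gap between the types. *Ina*, which encodes alpha-internexin, the subunit of early and central neurofilaments, was found in 27 of 47 (57.4%, 43.3 to 70.5%) and 33 of 44 neurons (75%, 60.6 to 85.4%). Its FPKM had a median of 4.73 (0 to 367) in Pyr←LP and 41.5 (0 to 440.5) in Pyr←ORBvl neurons. Where it was detected the medians lay closer together, at 60.6 and 97.1 FPKM.

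Among the microtubule-associated genes, *Map1b* (chr13:99421446-99516540), whose product stabilizes microtubules in axons, was the most regular of the 10, with counts in 46 of 47 and 43 of 44 neurons. Its median was 70.6 FPKM (0 to 358) in Pyr←LP and 69.8 FPKM (0 to 291) in Pyr←ORBvl neurons. By mean CPM, which does not correct for length, it ranked 63 among the 18674 genes with any count. *Map2* (chr1:66175273-66442583), for the protein of dendritic microtubules, was found in 38 of 47 and 37 of 44 neurons. Its medians were 2.74 FPKM (0 to 51.3) and 5.44 FPKM (0 to 35.4), with the highest single neuron in Pyr←LP.

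*Mapt* (chr11:104231390-104332090), for tau, was found in a smaller share of Pyr←ORBvl than of Pyr←LP neurons. It had counts in 35 of 47 Pyr←LP neurons (74.5%, 60.5 to 84.8%) and 23 of 44 Pyr←ORBvl neurons (52.3%, 37.9 to 66.2%), and these intervals overlapped. Its FPKM had a median of 13.4 (0 to 146) in Pyr←LP and 1.23 (0 to 46.05) in Pyr←ORBvl neurons. Where it was detected the medians were 19.6 and 11.8 FPKM. The neurons at 0 were 12 of 47 and 21 of 44.

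*Tubb3* (chr8:123411424-123422015), the neuronal beta-tubulin, was found in 31 of 47 (66.0%, 51.7 to 77.8%) and 34 of 44 neurons (77.3%, 63.0 to 87.2%). Its median was 4.09 FPKM (0 to 462) in Pyr←LP and 64.7 FPKM (0 to 414) in Pyr←ORBvl neurons. *Stmn2* (chr3:8509360-8561606), whose product binds tubulin and is needed for axon regrowth, was found in 40 of 47 and 36 of 44 neurons, with medians of 39.7 FPKM (0 to 189) and 38.9 FPKM (0 to 258). The medians of *Stmn2* were thus close to each other, while the highest neuron was a Pyr←ORBvl neuron. *Gap43* (chr16:42248442-42340651), for the growth cone protein GAP-43, had counts in 33 of 47 (70.2%, 56.0 to 81.4%) and 39 of 44 neurons (88.6%, 76.0 to 95.05%). Its medians were 61.8 FPKM (0 to 1565) and 168.9 FPKM (0 to 1507).

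**Figure D2:**
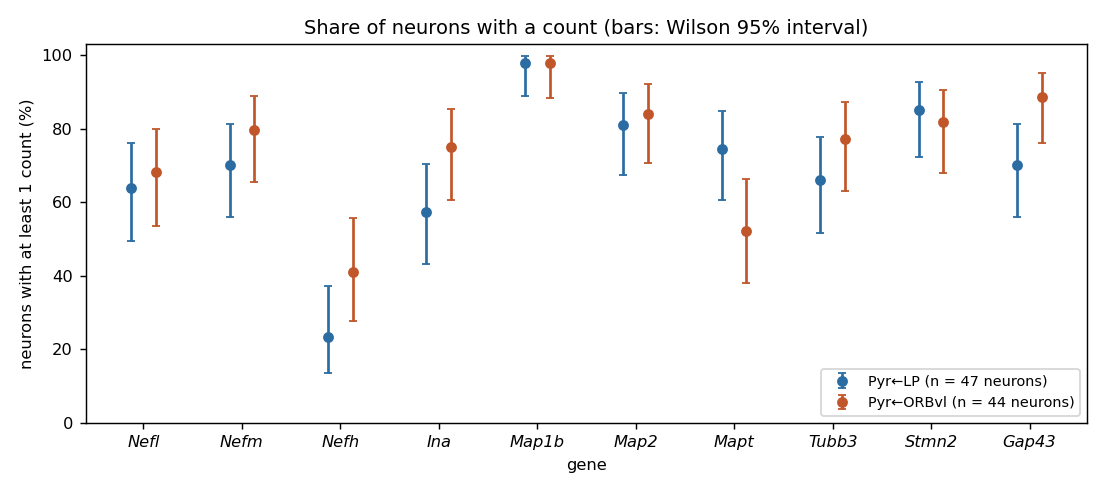
Percentage of neurons with at least 1 count of each gene, in 47 Pyr←LP (blue) and 44 Pyr←ORBvl neurons (orange), with Wilson 95% intervals. The intervals of the types overlap for all 10 genes, and Mapt is the gene whose Pyr←LP share lies furthest above its Pyr←ORBvl share.

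These intervals cover the sampling of neurons and not losses in capture and amplification, since the reads carry no molecular identifiers. They also take the neurons as independent, although up to 6 neurons of a type share the first number of their titles, so they can be too narrow. Zeros were also common in deep libraries. In the 72 neurons with at least 100000 counts, *Nefl* was at 0 in 22, and 3 counts, the limit that a count of 0 allows, were 2.28 to 21.2 CPM there. The median was 286 CPM in the neurons of that depth with a *Nefl* count. For *Mapt* the zeros were 8 of 38 Pyr←LP and 15 of 34 Pyr←ORBvl neurons, with limits of 2.75 to 26.3 CPM and a median of 211 CPM where it was detected. These limits cover counting error only and do not bound the level of the transcript before capture and amplification. When each of these neurons was thinned to 100000 counts, the shares were 76.3% and 52.9% for *Mapt*, 63.2% and 73.5% for *Nefl*, 55.3% and 82.4% for *Ina*, 65.8% and 88.2% for *Gap43*, 23.7% and 32.4% for *Nefh*, and 57.9% and 67.6% for *Tubb3* (Pyr←LP, then Pyr←ORBvl). The side with the larger share was the same as without thinning for these 6 genes. It turned for *Stmn2*, which without thinning was found in 92.1% and 85.3% of the neurons of this depth and after it in 84.2% and 85.3%.

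The genes were next compared between neurons, over the 72 neurons with at least 100000 counts and on CPM, as a description: neurons share prefixes and library preparation, and no test was run. *Nefl* and *Nefm* had the highest Spearman rho of the 45 pairs, 0.63, against a median pair of 0.11 and a range from -0.11 upward. Both genes were found in 46 of the 72 neurons, only *Nefl* in 4, only *Nefm* in 11 and neither in 11. Of the 2335 other genes with a count in at least 50% of these neurons, *Nefm* ranked 1 in likeness to *Nefl*, and *Nefl* ranked 1 in likeness to *Nefm*. The rho was 0.43 within Pyr←LP neurons, where that of *Nefm* and *Ina* was higher at 0.45, and 0.79 within Pyr←ORBvl neurons, 0.60 without the near-identical neurons, 0.64 under the study's rule against neurons with few counts or with GABAergic genes as read on these counts and 0.61 after thinning.

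Reads from the bases that *Nefl* shares with the *Nefm* exon could be counted under either name, and their part in this rho was not tested. Counting only neurons with at least 10 counts of the gene present, in 3 of the 72 neurons *Nefl* had 29, 31 and 110 counts while *Nefm* had 0, and in 8 neurons *Nefm* had 14 to 374 counts while *Nefl* had 0. The files do not show where in the genes these reads lie. *Nefh* was seen inside the group of neurons with *Nefm*: all 24 neurons with a *Nefh* count had *Nefm* and 22 had *Nefl*, whereas 33 neurons had *Nefm* without *Nefh*. Its rho was 0.35 with *Nefl* and 0.34 with *Nefm*, and these were 0.29 and 0.28 without the near-identical neurons, which had 250 and 273 *Nefh* counts. The values differed between the types, at 0.10 and 0.18 within Pyr←LP and 0.54 and 0.50 within Pyr←ORBvl neurons, and under that exclusion rule they were 0.29 and 0.21; the difference between the types was not tested.

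**Figure D3:**
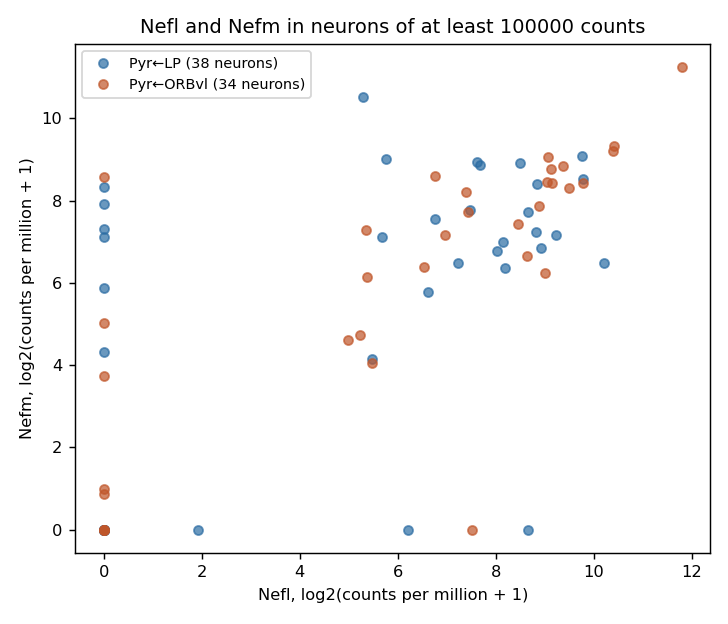
Nefl against Nefm in the 72 neurons with at least 100000 counts, both as log2(CPM + 1), with 38 Pyr←LP neurons in blue and 34 Pyr←ORBvl neurons in orange. The 46 neurons with both genes form a rising cloud, 11 neurons lie on the left edge with Nefm alone, 4 on the lower edge with Nefl alone and 11 at the origin.

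Over all 72 neurons *Ina* had rho of 0.18 with *Nefl*, 0.22 with *Nefm* and 0.09 with *Nefh*. These pooled values joined 0.35, 0.45 and 0.31 within Pyr←LP neurons with -0.04, -0.15 and -0.19 within Pyr←ORBvl neurons, and this difference was not tested. Its nearest gene among the 10 was *Gap43* (0.36), which was found with it in 43 of the 72 neurons. *Tubb3* had rho of 0.37 with *Nefm* and 0.32 with *Nefh*. *Map1b* and *Mapt*, by contrast, stayed at 0.18 or below with every other gene of the 10 over all 72 neurons. Within Pyr←ORBvl neurons *Map1b* had 0.31 with *Nefh* and -0.40 with *Gap43*, and *Mapt* had 0.32 with *Stmn2*. Within Pyr←LP neurons these were -0.005, 0.12 and -0.03, and the differences were not tested. *Map1b* also had a rho of 0.37 with the total count of a neuron over all 72, the highest of the 10, where *Nefl* and *Nefm* had -0.06 and -0.03. This rho of *Map1b* was 0.57 within Pyr←ORBvl neurons and 0.18 within Pyr←LP neurons, where *Stmn2* was higher at 0.21. Outside the 10 genes, the 5 most like the summed CPM of *Nefl*, *Nefm* and *Nefh* among 2327 were *1700086L19Rik* (rho 0.50), *Dnm1* (0.50), which encodes the dynamin of synaptic vesicle recycling, *Trim9* (0.48), a brain ubiquitin ligase, the ribosomal protein gene *Rpl21* (0.46) and *Chga* (0.45), for chromogranin A of dense-core vesicles.

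All 10 genes were among the 8267 with enough counts to be tested. For the comparison of the types, counts were summed over the neurons of each type that share a title prefix, the number before the neuron's own number in its title, which gave 16 Pyr←LP and 15 Pyr←ORBvl sums. The labels do not say what a prefix stands for, so the p-values measure the spread between these sums. The study's text names 15 mice for these neurons, fewer than the 17 prefixes, while a figure legend names more. If several prefixes came from 1 mouse, the p-values are too small. At an adjusted p under 0.05 and more than a 2-fold change, edgeR's quasi-likelihood test called 23 of 8267 genes (0.278%). Of the 10 cytoskeletal genes 0 were called, and 0 had an unadjusted p under 0.05, which 357 genes (4.32%) had. DESeq2 on the same sums also called 0 of the 10 (63 genes called, 0.762%), as did limma on mean log2(CPM + 1) (1 gene, 0.0121%) and the exact two-sided sign-flip permutation test within prefixes (0 genes, 0%). With 14 prefixes the smallest p of the sign-flip test is too large for 1 gene alone to pass the correction over 8267 genes. Its 0 calls therefore carry little weight. An unadjusted p under 0.05 was given by limma for *Mapt*, *Gap43* and *Tubb3* among 757 genes (9.16%) and by the sign-flip test for *Mapt*, *Gap43* and *Ina* among 672 genes (8.13%). DESeq2 on the sums gave one for *Mapt* among 569 genes (6.88%). With neurons as units, 0 of the 10 were called by edgeR (130 genes, 1.57%) or by DESeq2 (68 genes, 1.05%).

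The sums of *Nefl* ran from 0 to 1180 CPM (median 203) in Pyr←LP and from 0 to 1632 CPM (median 251) in Pyr←ORBvl neurons. They overlapped almost fully, and of the 14 prefixes with both types Pyr←ORBvl was higher in 6. The log2 fold change (Pyr←ORBvl over Pyr←LP) was 0.39 ± 0.76 (SE, edgeR p = 0.609), and 0.10 ± 0.78 without the near-identical neurons. *Nefm* sums ran from 4.10 to 1133 CPM (median 122) and from 0 to 643 CPM (median 198), with Pyr←ORBvl higher in 7 of 14 prefixes. Its log2 fold change was 0.26 ± 0.73 (edgeR p = 0.726) and 0.09 ± 0.75 without those neurons. Neither difference was larger than its standard error, and leaving out 1 title prefix moved them from 0.074 (without prefix 919) to 0.74 (without 826) for *Nefl* and from 0.049 (without 916) to 0.45 (without 810) for *Nefm*.

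*Nefh* was at 0 in 9 of 16 Pyr←LP and 7 of 15 Pyr←ORBvl sums, and the others reached 340 and 245 CPM. Pyr←ORBvl was higher in 7 and Pyr←LP in 4 of the 14 prefixes. The log2 fold change was 1.19 ± 1.34 (edgeR p = 0.379), the widest error of the 10, and 0.90 ± 1.34 without the near-identical neurons. *Ina* sums ran from 0 to 535 CPM (median 82.3) in Pyr←LP and from 0 to 581 CPM (median 249) in Pyr←ORBvl neurons, with Pyr←ORBvl higher in 10 of 14 prefixes. The log2 fold change was 0.92 ± 0.85 (edgeR p = 0.282), slightly above its standard error and far from the threshold. On the mean of log2(CPM + 1) over the neurons of a type and prefix, the exact sign-flip test gave a difference of 2.02 (p = 0.0399, adjusted p = 0.590), with Pyr←ORBvl higher in 8 of 14 prefixes.

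*Map1b* was present in every sum, from 160 to 2857 CPM (median 989) in Pyr←LP and from 1.55 to 2436 CPM (median 1087) in Pyr←ORBvl neurons. It was higher in Pyr←ORBvl in 7 of 14 prefixes. With the smallest standard error of the 10, its log2 fold change was 0.17 ± 0.47 (edgeR p = 0.729), and 0.059 without the near-identical neurons. *Map2* sums ran from 0 to 604 CPM (median 168) and from 27.6 to 462 CPM (median 209.6), with a log2 fold change of 0.15 ± 0.68 (edgeR p = 0.830), and 0.064 without those neurons. Median ratio size factors turned the sign of *Map2* to -0.04. On the mean of log2(CPM + 1) it was 1.09 in the exact sign-flip test (adjusted p = 0.792) and 0.81 in limma (adjusted p = 0.827).

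*Mapt* sums ran from 0 to 718 CPM (median 232) in Pyr←LP and from 0 to 315 CPM (median 20.8) in Pyr←ORBvl neurons. Pyr←LP was higher in 12 of the 14 prefixes with both types, and the ranges overlapped because 1 Pyr←LP sum was at 0 and several Pyr←ORBvl sums stood near 200 CPM or more. The log2 fold change was -1.25 ± 0.86 (edgeR p = 0.151, adjusted p = 0.999). It was below 0 in all 35 alternatives, between -3.79 and -0.95, with adjusted p of 0.278 or more. The exact sign-flip test on the mean of log2(CPM + 1) gave a difference of -3.25 (p = 0.00317, adjusted p = 0.458) and limma one of -2.80 ± 0.92 (p = 0.00282, adjusted p = 0.278). DESeq2 on the sums gave -1.60 ± 0.79 (p = 0.0422, adjusted p = 0.666). By no test did it pass the correction over all genes.

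**Figure D4:**
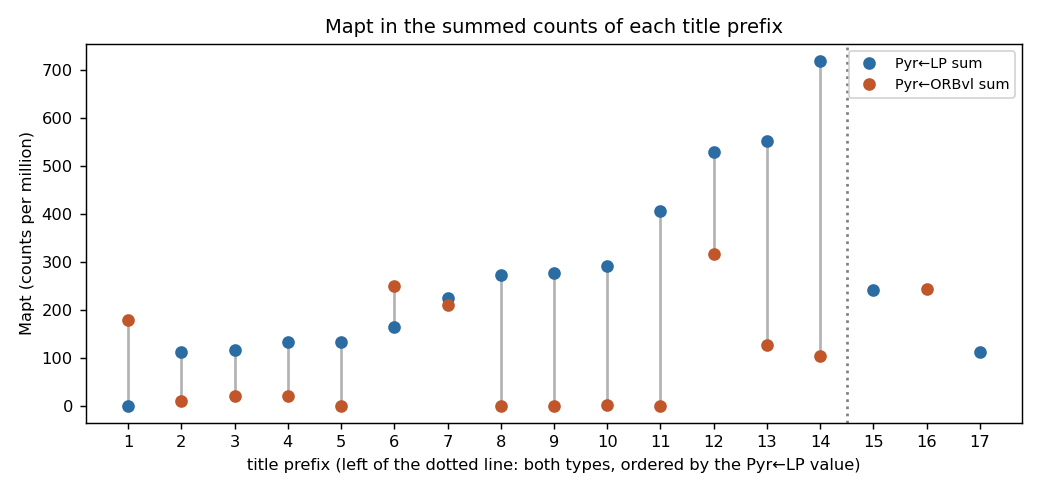
Mapt in CPM of the summed neurons of each title prefix, Pyr←LP in blue and Pyr←ORBvl in orange, with a grey line joining the types of a prefix; right of the dotted line are the 3 prefixes with a single type. The blue point lies above the orange one in 12 of 14 prefixes.

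*Tubb3* sums ran from 0 to 445 CPM (median 61.0) in Pyr←LP and from 13.8 to 515 CPM (median 189) in Pyr←ORBvl neurons, with Pyr←ORBvl higher in 10 of 14 prefixes. The log2 fold change was 0.79 ± 0.80 (edgeR p = 0.329), and 0.59 without the near-identical neurons. For *Mapt*, *Ina*, *Gap43* and *Stmn2* the values without them were -1.42, 1.04, 0.42 and 0.040. *Gap43* sums ran from 0.824 to 769 CPM (median 334) and from 77.3 to 945 CPM (median 439), with Pyr←ORBvl higher in 8 of 14 prefixes. The log2 fold change was 0.36 ± 0.60 (edgeR p = 0.554), while the mean of log2(CPM + 1) differed by 2.10 in the exact sign-flip test (p = 0.0197, adjusted p = 0.526) and was higher in Pyr←ORBvl in 11 of 14 prefixes. On that scale the median of all genes was itself 0.27 higher in Pyr←ORBvl. *Stmn2* sums ran from 32.2 to 784 CPM (median 339) and from 0 to 1259 CPM (median 224), with a log2 fold change of 0.03 ± 0.65 (edgeR p = 0.958), whose sign changed with the setting.

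**Figure D5:**
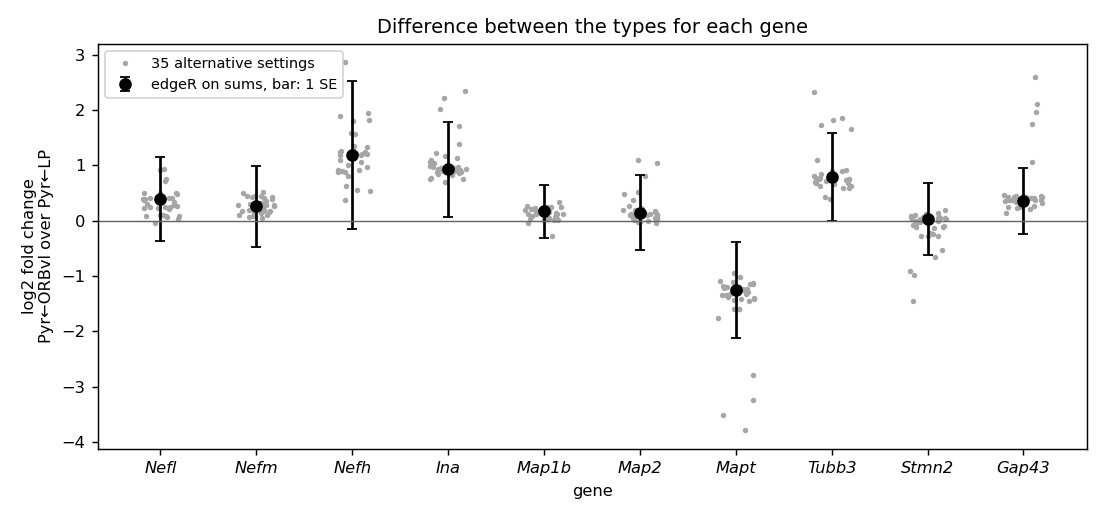
Log2 fold change of each gene, Pyr←ORBvl over Pyr←LP, by edgeR on 16 and 15 sums (black, bars of 1 SE) and in 35 alternative settings (grey). Mapt lies below 0 in every setting, Nefm, Nefh, Ina, Tubb3 and Gap43 lie above 0 in every setting, and the others have points on both sides.

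Other genes of the same machinery were taken from a list of 75, of which 67 had enough counts to be tested. Of these, 0 were called in either direction by edgeR and 1 had an unadjusted p under 0.05, and their median log2 fold change was -0.01, beside 0.06 over all 8267 genes and 0.31 over the 10. The 4 other intermediate filament genes on the list (*Prph*, *Vim*, *Nes*, *Synm*) had too few counts to be tested. The 11 tubulins tested lay between -1.14 and 1.32 (median 0.45), the 12 motor genes between -0.23 and 1.17 (median 0.14), the 7 spectrins and ankyrins between -0.68 and 1.85 (median 0.13), and the 8 actin genes between -0.10 and 1.05 (median 0.16). The 13 microtubule-associated genes spread most widely, from -1.59 to 2.20 (median -0.37), and the 3 stathmins lay between -0.45 and -0.07. The 7 growth cone genes had a median of -0.15 and the 6 kinases of tau and neurofilaments one of -0.10.

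Among the listed genes with a mean above 100 CPM, the largest values toward Pyr←ORBvl were those of *Map1a*, the relative of *Map1b* in mature neurons (2.20 ± 0.88, edgeR p = 0.0155, adjusted p = 0.797), and of the tubulin gene *Tubb4b* (1.32 ± 0.93). *Map1a* had counts in 27 of 47 Pyr←LP and 34 of 44 Pyr←ORBvl neurons. Toward Pyr←LP they were those of *Map6* (-1.59 ± 1.11), whose product makes microtubules resistant to cold, and *Gsk3b* (-1.23 ± 0.81), a kinase of tau. None of these passed the correction over all genes.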

How the data were processed

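The authors deposited gene counts and, in a second table, FPKM for the same 91 neurons. Per the study's methods and processing notes, reads were aligned to GRCm38 (mm10) with STAR 2.5.3, PCR duplicates were removed, and uniquely aligned reads were counted without normalization on RefSeq genes with GenomicAlignments; how FPKM were made is not given in the sources used here. The deposited FPKM equalled counts divided by the column total and by 1 length per gene. Types were taken from the labels. A gene was tested where 10 or more neurons had 5 or more counts of it. The test was made on sums per type and title prefix, with TMM scaling and the robust form of the quasi-likelihood fit of edgeR 4.0.16 (R 4.3.3), and p-values were adjusted over all genes tested by the method of Benjamini and Hochberg. DESeq2 1.42.0, limma 3.58.1 and the exact sign-flip test were alternatives. Prefixes that differ only by a hyphen were read as 1, giving 17. Sums held 1 to 6 neurons and between 26473 and 3713894 counts. Shares have Wilson 95% intervals (scipy 1.17.1), and thinning drew 100000 counts per neuron. The exclusion rule of the study (under 500 counts, or log2(count + 1) of *Slc32a1*, *Gad1* and *Gad2* summing above 7), read here on the deposited counts, would remove 8 neurons, all by the GABAergic sum, and was an alternative. The study left out more neurons, some of them for low counts, so this reading does not give its set. Plots were made with matplotlib 3.10.9. Scripts were tested on simulated data.

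Named genes were the 10 members, the 2 listed cytoskeletal genes of largest fold change in each direction above 100 CPM on average, and the 5 most like the summed neurofilament subunits. The members and lists were chosen with earlier results of these data known. Proteins and promoters were not used here.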

Additional observations from a re-analysis of the deposited data

How the results depend on the processing

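None of the 10 cytoskeletal genes was called under any of the 35 alternatives, 17 of which leave out 1 title prefix each. The number of genes called over the whole table, 23 in edgeR on sums, was 63 with DESeq2 on the sums, 130 and 68 with neurons as units in edgeR and DESeq2, 15 with neurons of at least 100000 counts only, 2 with filterByExpr, 1 in each of the 3 limma fits, 0 in the exact sign-flip test and 3985 of 18674 without a filter on low counts, where *Tubb2b* was the 1 listed cytoskeletal gene called (-4.24, adjusted p = 0.0360). Leaving out a prefix gave 10 to 25 calls, with the fewest without prefix 822 (10), 831 (11), 823 (13), 915 (13) and 914 (15). Calls higher in Pyr←ORBvl were 73.9% in edgeR on sums, 57.1% with DESeq2 on sums and 52.9% under the exclusion rule as read on these counts. Title prefix as a replicate block left 1 call, and *Mapt*, at -3.52 (SE 1.58, edgeR p = 0.0256, adjusted p = 0.956), was the 1 of the 10 with an unadjusted p under 0.05 there, among 381 genes. Deviations of sums of the same prefix correlated between -0.03 and 0.09 over 14 prefixes, all below 0.1. Sums of as few as 1 neuron are noisy, so these low values cannot tell whether the prefixes pair the samples.

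The sign of the log2 fold change turned in 4 genes, which were at 0.39 (*Nefl*), 0.17 (*Map1b*), 0.15 (*Map2*) and 0.03 (*Stmn2*) in edgeR on sums. Under the replicate block it was -0.040 for *Nefl*, -0.28 for *Map1b* and -0.54 for *Stmn2*. *Map2* gave -0.029 with DESeq2 on the sums and -0.038 with median ratio size factors. *Stmn2* gave -0.28 with either of these, -0.032 with filterByExpr, -0.094 with hyphenated prefixes kept apart, -0.25 with DESeq2 on neurons, -0.91 in the sign-flip test, and -0.99, -1.46 and -0.66 with limma on log2(CPM + 1), log2(CPM + 0.1) and log2(FPKM + 1). Leaving out a prefix moved *Map1b* from -0.039 to 0.34, *Map2* from -0.022 to 0.27 and *Stmn2* from -0.27 to 0.19; the cause was not tested. The sign held in the other genes. Leaving out a prefix gave 0.63 (without prefix 831) to 1.79 (without 914) for *Nefh*, 0.70 to 1.22 for *Ina*, 0.40 (without 914) to 1.10 for *Tubb3*, 0.14 (without 916) to 0.47 for *Gap43* and -1.60 to -1.02 for *Mapt*. Over all settings the ranges were wider, 0.37 to 2.86 for *Nefh*, 0.70 to 2.34 for *Ina*, 0.40 to 2.33 for *Tubb3*, 0.14 to 2.60 for *Gap43* and -3.79 to -0.95 for *Mapt*. Median ratio size factors shifted the median of all genes by -0.09, hyphenated prefixes kept apart by -0.13, the replicate block by 0.21, and the 3 limma fits by 0.19 to 0.38.

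Limits: a share of neurons cannot separate a neuron without the transcript from one whose transcripts were lost, and the standard errors, 0.47 to 1.34 on the log2 scale, put a 2-fold difference under 2 standard errors for all of the 10 but *Map1b*. Both near-identical neurons were kept, and leaving out either or both called 0 of the 10. Leaving out a single one of them, the length alternative and the checks of covariation were chosen after seeing the data.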
